A study of Mus musculus with 16 samples.

Results

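Normal mouse kidney was compared with normal mouse liver on 6 microarrays, chosen by their titles from the 16 arrays of a study of tumors that follow interrupted reprogramming. There were 3 arrays titled normal kidney and 3 titled normal liver, each of total RNA from bulk tissue. Per the labels, the mice were made from an embryonic stem (ES) cell line and had a 129xC57BL6 F1 or mixed 129 and C57BL6 background. The labels do not say whether the mice that gave normal tissue carried the reprogramming transgenes or received doxycycline (Dox). Normal kidney was of the same age as the kidney tumors, which the series' design places 7 days after a 7-day Dox treatment that began at 4 weeks. The age of the normal liver, the sex of the animals and whether each array was a separate animal are not given in the labels, so the p-values reflect only how these arrays vary, and part of that variation may be technical. Kidney tumors and liver tumors (3 arrays each) came from reprogrammable chimeric mice treated with Dox, may contain ICR host cells per the labels, and are compared only in the last comparison, although the fit also takes the spread of all tumor groups into the SE of every difference. In the study the kidney arrays served as controls for the tumors, and the organ comparison is the contrast between its normal tissues.

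Kidney and liver both take up, transform and clear small molecules, but they are built differently. The kidney filters plasma through podocyte-covered glomeruli and then reclaims solutes along the proximal tubule, the loop of Henle, the distal tubule and the collecting duct, each with its own transporters. The liver is mostly hepatocytes, which secrete plasma proteins, make bile acids, oxidise drugs and convert ammonia to urea. Several pathways run across both organs: vitamin D, angiotensin and creatine are made in steps that the liver and the kidney share, and both organs can release glucose.

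All levels are log2 of the deposited intensity, and all differences are kidney minus liver on that scale, with the standard error (SE) of the fit. A gene was called at an adjusted p under 0.05 in limma, with the Benjamini-Hochberg adjustment made across the 19938 genes. Levels of different genes come from different probes and were not set against each other. The number of arrays limits the precision, and the top of the scale was near 14 (the brightest of all probe sets reached an intensity of 20262), so differences between bright genes may be compressed. In bulk tissue, fewer cells of a type and less RNA per cell cannot be told apart.

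Individual arrays stood apart within both groups. Normal liver 1 carried adrenal transcripts. Cyp21a1 and Cyp11b1, steroid hydroxylases of the adrenal cortex, stood at 12.01 and 11.62 in normal liver 1, at 6.33 and 6.27 in normal liver 2 and at 6.55 and 6.04 in normal liver 3. Star, which brings cholesterol into mitochondria for steroid synthesis, and Dbh, the noradrenaline-forming enzyme of the adrenal medulla, were at 11.34 and 10.40 in normal liver 1. They did not pass 6.75 and 6.41 in the other livers. The medullary enzyme Pnmt, which makes adrenaline, was not raised there, at 6.21 in normal liver 1 against 6.41 and 6.53 in the other livers. Fat transcripts were high in normal liver 1 and in normal kidney 2. Adipoq, the adipocyte hormone adiponectin, stood at 5.85, 9.98 and 5.63 in kidneys 1 to 3 and at 10.38, 5.99 and 5.81 in livers 1 to 3. Ucp1, the uncoupling protein of brown fat, reached 10.78 in normal liver 1 and 6.91 in normal kidney 2, and lay between 5.80 and 6.09 in the other 4 arrays. The median of 12 adipocyte markers was 10.11 in normal kidney 2 and 10.51 in normal liver 1, against 7.40 to 7.63 in the other 4 arrays.

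Kidney transcripts were also highest in normal liver 1. Of the 33 proximal tubule genes called at least 4-fold higher in kidney, 30 were highest in normal liver 1 among the livers, and 26 fell in the order liver 1, liver 2, liver 3. Their median linear signal in livers 1, 2 and 3 was 7.54%, 3.84% and 2.39% of the mean kidney signal. That percentage includes probe background, so it is not a share of kidney RNA. Slc34a1, the phosphate transporter of the proximal brush border, stood at 13.68, 13.83 and 13.70 in kidneys 1 to 3, against 11.29, 9.54 and 7.75 in livers 1 to 3. Of 16 loop and distal tubule genes chosen in the same way 14 had that order, and of 16 collecting duct genes 9. As normal liver 1 was the highest liver for most such genes, leaving it out was bound to enlarge their differences. For Slc34a1 the difference was then 5.09 in place of 4.21. The other livers had departures of their own. In normal liver 2, Alas2, the erythroid haem synthesis enzyme, stood at 12.41, against 11.04 and 10.61 in livers 1 and 3, and Ppbp, a platelet chemokine, at 11.35, against 7.74 and 7.85. The median of 6 erythroid markers was 7.21, 7.70 and 7.30 in livers 1 to 3. In normal liver 3, A1bg, which is known to be female-biased in mouse liver, stood at 10.25, against 6.74 and 6.96 in livers 1 and 2. Elovl3, a male-biased elongase of very long fatty acids, was lower in it, at 10.002 against 12.42 and 12.36. The X-linked Xist lay between 5.65 and 5.99 and the Y-linked Eif2s3y between 9.75 and 10.10 on all 6 arrays. What these departures come from was not tested. Alas2, Ppbp and A1bg were singled out after their values were seen.

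**Figure D1:**
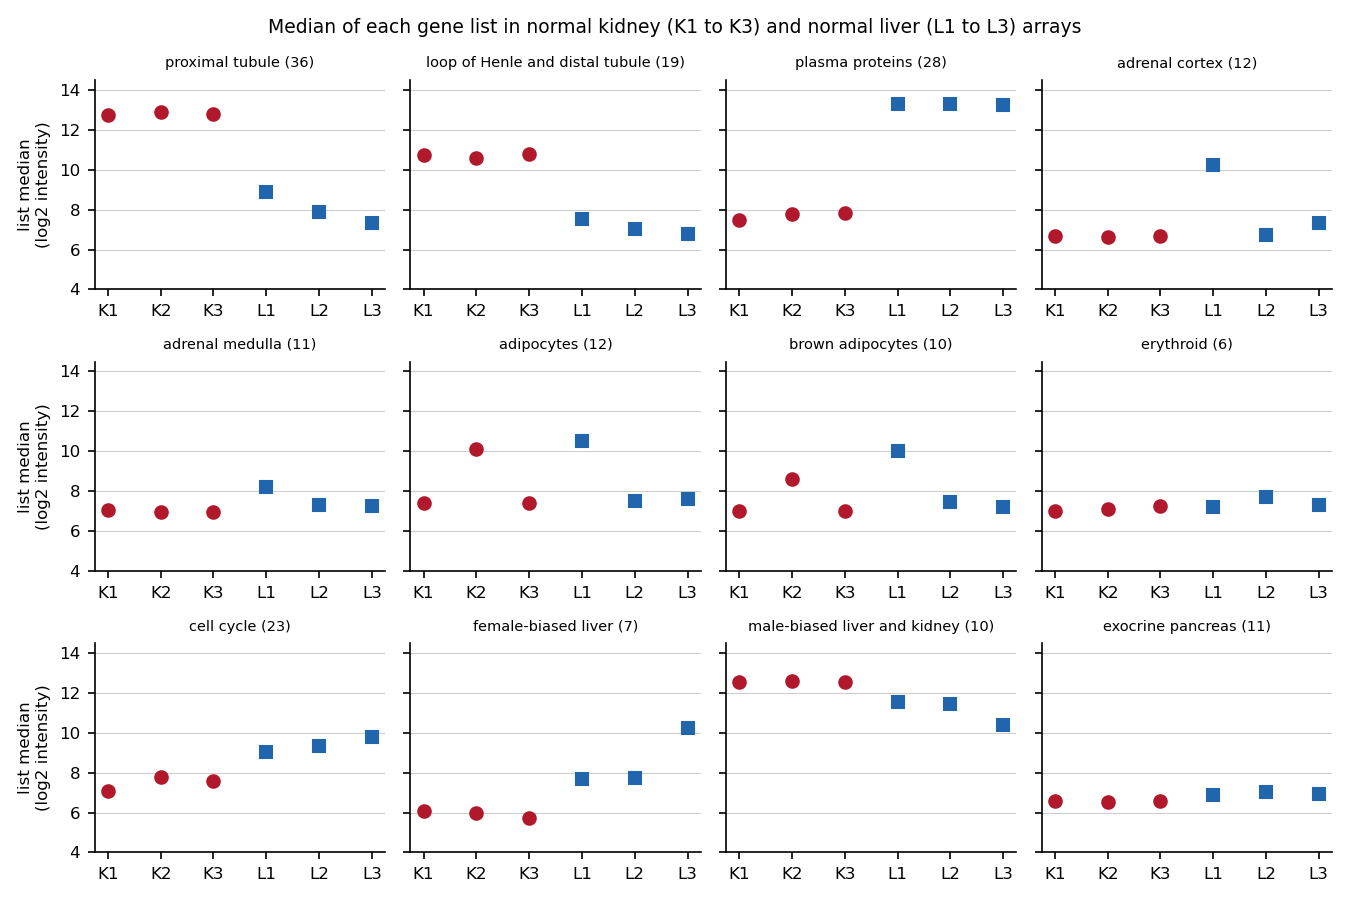
Median log2 intensity of 12 gene lists (measured members in brackets) on each normal kidney array (K1 to K3, circles) and each normal liver array (L1 to L3, squares). The adipocyte lists are high in K2 and L1, the adrenal cortex list reaches 10.23 in L1 alone, and the proximal tubule list is 8.89, 7.86 and 7.35 in L1, L2 and L3, against 12.73 to 12.88 in kidneys.

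The organs differed in a large share of the genes measured. limma called 7538 of 19938 genes (37.8%) in either direction, 4260 of them higher in kidney (21.4% of all genes) and 3278 lower (16.4%). A difference of at least 2-fold was called for 1523 genes higher in kidney (7.64%) and 1097 lower (5.5%). Differences beyond 4 log2 units were more often on the liver side: 111 called genes were at least that much higher in kidney and 191 at least that much lower. Across genes, kidneys correlated with each other at r = 0.992 to 0.995, livers at 0.982 to 0.992, and kidneys with livers at 0.847 to 0.873. Normal liver 1 was the liver nearest to each kidney. The median difference over all genes was -0.04, and centring each array on its median moved it to -0.12. The share of calls that were higher in kidney was 56.5% on the deposited scale, 53.2% after quantile normalization and 46.9% after centring, so small differences in one direction rest on the scale. Without normal liver 1, 3905 genes (19.6%) were called higher and 3023 (15.2%) lower. Of these, 3784 and 2832 were called the same way with all 6 arrays, and no gene was called in opposite directions.

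**Figure D2:**
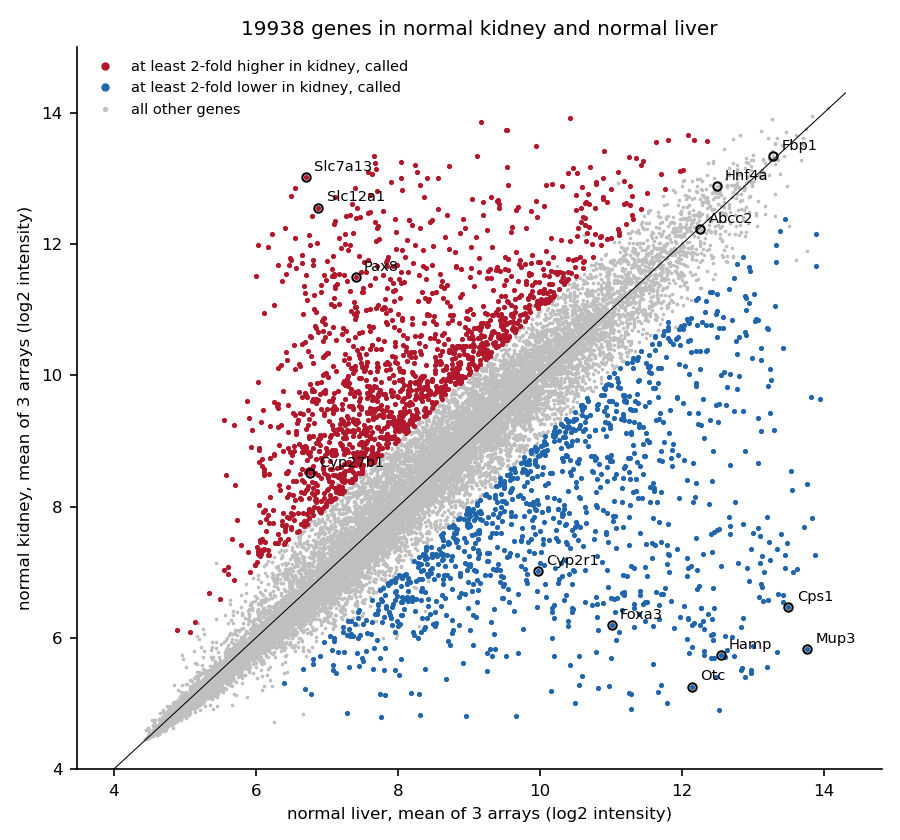
Mean log2 intensity of 3 normal kidney arrays (vertical axis) against 3 normal liver arrays (horizontal axis), 1 point per gene, with the line of equal level. Red marks the 1523 genes called at least 2-fold higher in kidney and blue the 1097 called at least 2-fold lower; Fbp1 and Hnf4a lie close to the line, while Slc7a13 and Mup3 lie at its far sides.

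Of the 12 genes with the largest differences in the kidney's favour, 6 were solute carriers. Slc7a13, an amino acid transporter of the proximal straight tubule, stood at 13.12, 12.95 and 13.001 in kidneys 1 to 3, against 7.20, 6.92 and 5.98 in livers 1 to 3 (difference 6.32 ± 0.89, 80.1-fold, adjusted p = 8.06e-05). Slc13a1, the sodium sulfate cotransporter, stood at 12.88, 12.92 and 12.77 in kidneys, against 7.77, 6.26 and 5.62 in livers (6.31 ± 0.42, 79.3-fold, adjusted p = 8.02e-08). Neither gene's kidney and liver arrays overlapped, which the rule that named them also required. The other solute carriers were Slc22a19 (5.96), Slco1a6 (5.92), Slc22a22 (5.78) and Slc12a1 (5.67), which move organic anions, prostaglandins or, for Slc12a1, sodium, potassium and chloride in the loop of Henle. The remaining 6 were the cytochromes P450 Cyp2j11 (5.83) and Cyp2j13 (5.61), the brush border metalloprotease Mep1a (5.68), the peroxisomal isomerase relative Eci3 (5.65), the amino acid transporter partner Cltrn (collectrin, 5.55) and the hydroxysteroid dehydrogenase Akr1c21 (5.54). All 12 were also called without normal liver 1, as the rule that named them required. Without it the difference of Slc13a1 was 6.92, that of Mep1a 6.23 and that of Cltrn 6.41.

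Proximal tubule genes were the kidney list with the largest median difference, 4.33, against -0.04 over all genes. Of 36 measured members 35 were called higher and none lower, and the counts were the same without normal liver 1, where the median was 4.98. Lrp2, the endocytic receptor megalin, stood at 13.05, 13.14 and 13.10 in kidneys, against 9.72, 8.11 and 6.96 in livers (4.83 ± 0.49, adjusted p = 4.55e-06). Its partner cubilin, Cubn, differed by 5.45 ± 0.57. Without normal liver 1 the differences were 5.56 for Lrp2 and 6.06 for Cubn. The glucose transporters Slc5a2 and Slc5a1, which act early and late along the tubule, differed by 3.85 ± 0.38 and 3.35 ± 0.23. The organic anion and cation carriers Slc22a6, Slc22a8 and Slc22a2, which load drugs and metabolites into the tubule cell, differed by 5.19, 5.04 and 5.44. Differences were smaller for Acy3 (1.78 ± 0.25), which deacetylates mercapturic acids, and for the bicarbonate carrier Slc4a4 (2.11 ± 0.24), which was also bright in livers. The single member not called was the brush border aminopeptidase Anpep, at 12.23, 12.46 and 12.52 in kidneys, against 12.10, 12.16 and 12.04 in livers (0.31 ± 0.21, adjusted p = 0.278).

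All 19 measured markers of Henle's loop and the distal tubule were called higher in kidney, with a median of 3.73. Umod, the uromodulin of the thick ascending limb, stood at 13.24, 13.13 and 13.24 in kidneys, against 9.40, 8.56 and 6.78 in livers (4.96 ± 0.55, adjusted p = 8.71e-06). Its livers again stood in the order 1, 2, 3. Slc12a3, the thiazide-sensitive cotransporter of the distal convoluted tubule, differed by 4.35 ± 0.41, and Calb1, the calcium-binding calbindin of the same segment, by 5.12 ± 0.49 (5.82 without normal liver 1). The smallest differences were those of the cation channels Trpm6 (1.29 ± 0.21) and Trpm7 (0.97 ± 0.10); Trpm7 is known to be expressed in most tissues.

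Of 23 collecting duct genes 21 were called higher, with a median of 2.71, and 20 were without normal liver 1. Hsd11b2, which protects the mineralocorticoid receptor from cortisol-like steroids, differed by 4.66 ± 0.33. The epithelial sodium channel subunits Scnn1g and Scnn1b differed by 4.42 ± 0.30 and 3.93 ± 0.27, and Scnn1a by 1.40 ± 0.31. The a4 subunit of the proton pump of intercalated cells, Atp6v0a4, stood at 11.91, 11.95 and 11.87 in kidneys, against 7.84, 7.19 and 6.85 in livers (4.61 ± 0.29). The water channel Aqp2 differed by 3.11 ± 0.39. Slc4a1, the anion exchanger that intercalated cells and red cells both use, was not called: kidneys stood at 10.24, 10.23 and 10.14, against 8.16, 10.86 and 7.55 in livers (1.34 ± 0.60, adjusted p = 0.0987). The groups overlapped through normal liver 2, the array with the highest Alas2. The call of the ammonia channel Rhbg (0.74 ± 0.23, adjusted p = 0.0192) was lost without normal liver 1 (0.68, adjusted p = 0.0612).

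Podocyte genes differed less. Of 11 measured, 7 were called higher and none lower, with a median of 1.31. Podxl, the sialomucin of the foot process surface, stood at 11.17, 11.26 and 11.15 in kidneys, against 9.36, 8.59 and 8.69 in livers (2.31 ± 0.25). Nphs1, the slit diaphragm protein nephrin, differed by 1.31 ± 0.15. Podxl is also known from vascular endothelium, and 14 of 16 endothelial markers were highest in normal liver 1 among the livers. Synpo, a podocyte actin-binding protein, was called only without that array (0.45, adjusted p = 0.0485, against 0.33 and 0.105 with it).

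Transcription factors of kidney development and of tubule cells were higher in kidney for 29 of 35 measured members and lower for none, with a median of 1.80. Without normal liver 1, 31 were called. Pax8, needed for nephron formation, stood at 11.68, 11.44 and 11.38 in kidneys, against 7.68, 7.25 and 7.28 in livers (4.10 ± 0.31, 17.1-fold, adjusted p = 2.5e-07). The Hox genes Hoxd8 (3.80 ± 0.32), Hoxd10 (2.95 ± 0.18), Hoxa10 (2.56 ± 0.17) and Hoxc10 (2.45 ± 0.13), which set position along the body axis, were also higher. Hoxc8 and Osr1 were called only without normal liver 1. Hoxc8 stood at 8.71, 9.47 and 8.62 in kidneys, against 9.30, 7.64 and 7.21 in livers. Six2, which marks nephron progenitors before birth, was not called (-0.29 ± 0.16, adjusted p = 0.161), nor was Sall1 (0.14 ± 0.13).

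The 12 genes with the largest differences on the liver side included 5 cytochromes P450. Mup3, a major urinary protein made by the liver, stood at 5.50, 6.02 and 5.97 in kidneys, against 13.76, 13.87 and 13.65 in livers (-7.93 ± 0.16, 244-fold lower in kidney, adjusted p = 5.91e-13). Fabp1, the liver fatty acid binding protein, stood at 5.62, 5.47 and 5.55 in kidneys, against 13.16, 13.27 and 13.16 in livers (-7.65 ± 0.37, 201-fold lower). The kidney and liver values of both genes lay far apart, and normal liver 1 lay close to the other livers. The other 10 of the 12 largest were Cyp3a11 (-7.62), the carboxylesterase Ces1c (-7.55), the tryptophan dioxygenase Tdo2 (-7.50), Ugt2b1 (-7.49), Cyp2c29 (-7.47), the bile acid and drug importer Slco1b2 (-7.32), Cyp2a12 (-7.30), Cyp2c70 (-7.11), Cyp2c50 (-7.07) and Cps1 (-7.03). Members of the Mup, Cyp2c, Ces1 and Ugt2b families are near-identical in sequence, so signal of 1 member can include its relatives. Of 21 major urinary protein entries only 3 had a probe set of their own.

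Plasma protein genes were lower in kidney for 27 of 28 measured members, with a median of -5.20. Alb, serum albumin, stood at 9.35, 9.53 and 10.14 in kidneys, against 13.80, 13.89 and 13.76 in livers (-4.14 ± 0.35, adjusted p = 7.07e-07). Ahsg, the fetuin that keeps calcium phosphate in solution, differed by -6.62 ± 0.22. Igf1, the growth factor that the liver releases into blood, differed by -4.04 ± 0.29. Pzp, a broad protease inhibitor, was the member not called (-1.84 ± 0.71, adjusted p = 0.0578), although its kidneys stood at 11.80, 11.66 and 11.80 and its livers at 13.58, 13.66 and 13.55. The SE of the fit uses the spread of all 5 replicated groups, tumors included, and can be larger than the spread of the 6 normal arrays. Some secreted products were raised in normal kidney 2, the array high in adipocyte markers, and their source there was not tested. Of the 28 measured members, only 8 were highest in normal kidney 2 among the kidneys. The list as a whole was not raised there: its median departure from the mean of kidneys 1 and 3 was -0.12. Rbp4, the retinol carrier, stood at 6.62, 9.28 and 6.85 in kidneys 1 to 3, against 13.34, 13.53 and 13.29 in livers. Hp, haptoglobin, stood at 6.87, 9.39 and 6.96 in kidneys, against 12.83 to 12.94 in livers. Orm1, an acid glycoprotein, was at 6.47, 8.75 and 7.18 in kidneys. Outside this list, Apoc1 stood at 6.88, 8.14 and 7.05 in kidneys 1 to 3. Pon1, singled out after its values were seen, stood at 5.67, 8.44 and 5.87 in them.

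Coagulation factors were lower for 12 of 15 (median -4.22) and complement genes for 15 of 16 (median -4.37), and no member of either list was higher. F2, prothrombin, stood at 7.50, 6.78 and 7.29 in kidneys, against 13.15, 13.25 and 13.29 in livers (-6.04 ± 0.16). F9, coagulation factor IX, differed by -6.15 ± 0.13, and Serpind1, heparin cofactor II, by -6.63 ± 0.09. The members not called were F13b (-0.48 ± 0.27), the plasmin inhibitor Serpinf2 (-0.55 ± 0.36) and the anticoagulant protease Proc (-0.77 ± 0.37). Their kidneys were bright: Serpinf2 stood at 12.83, 12.68 and 12.78 in kidneys, against 13.29, 13.31 and 13.34 in livers, without overlap. In complement, the terminal components C8b (-6.58 ± 0.10), Hc (-6.55 ± 0.17) and C9 (-6.28 ± 0.15) and the regulator C4bp (-6.58 ± 0.12) differed most. Cfb, factor B of the alternative pathway, was not called: kidneys stood at 12.05, 11.84 and 11.82, against 12.53, 12.63 and 12.61 in livers (-0.69 ± 0.42, adjusted p = 0.222).

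All 16 measured genes of apolipoproteins and lipoprotein assembly were lower in kidney, with a median of -3.89. Apoa1, the main protein of high-density lipoprotein, stood at 7.61, 7.76 and 8.12 in kidneys, against 13.78, 13.85 and 13.85 in livers (-6.00 ± 0.15). Apob (-2.47 ± 0.34), the structural protein of very-low-density lipoprotein, and Mttp (-2.44 ± 0.18), which loads it with lipid, differed less. Apom, a carrier of sphingosine phosphate that the kidney tubule also makes, stood at 10.24, 10.02 and 10.12 in kidneys, against 11.34, 11.54 and 11.72 in livers (-1.41 ± 0.18).

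Bile acid genes split by step. Of 23 measured, 15 were called lower and 2 higher, with a median of -4.16. Cyp7a1, the rate-limiting enzyme of bile acid synthesis, stood at 4.98, 5.02 and 5.03 in kidneys, against 10.22, 9.94 and 11.31 in livers (-5.48 ± 0.70, adjusted p = 3.48e-05). The canalicular bile salt pump Abcb11 (-6.57 ± 0.18) and the basolateral uptake carrier Slc10a1 (-5.88 ± 0.28) were also lower. The members higher in kidney were both subunits of the organic solute transporter, which exports bile acids across the basolateral membrane. Slc51a stood at 11.11, 11.03 and 11.10 in kidneys, against 7.43, 7.00 and 7.08 in livers (3.91 ± 0.18), and Slc51b differed by 2.15 ± 0.26. Abcc2, an apical exporter of conjugates that both organs use, stood at 12.29, 12.25 and 12.14 in kidneys, against 12.26, 12.26 and 12.25 in livers. It was not called (-0.03 ± 0.27, 95% interval -0.60 to 0.55).

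Cytochromes P450 of families 1 to 3 were lower for 24 of 34 members and higher for 4, with a median of -3.54. Cyp3a11, the main mouse CYP3A enzyme, stood at 4.81, 4.92 and 4.98 in kidneys, against 12.26, 12.76 and 12.56 in livers (-7.62 ± 0.14). Cyp1a2 differed by -6.89 ± 0.17. The 4 members higher in kidney were Cyp2j11 (5.83 ± 0.31) and Cyp2j13 (5.61 ± 0.55), which belong to a subfamily of fatty acid epoxygenases, Cyp1b1 (2.08 ± 0.41) and Cyp2s1 (1.94 ± 0.53). Cyp2e1, which oxidises ethanol, stood at 13.52, 13.58 and 13.46 in kidneys, against 13.72, 13.69 and 13.67 in livers, without overlap. Its SE of 0.85 left no call (-0.17, adjusted p = 0.898).

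Conjugation enzymes were lower for 22 of 35 members and higher for 9, with a median of -1.18. Ugt2b1 (-7.49 ± 0.09), Ugt2b36 (-7.01 ± 0.10) and the sulfotransferase Sult2a8 (-6.78 ± 0.48) were the largest. Ugt8a, which makes galactosylceramide, stood at 11.80, 11.62 and 11.63 in kidneys, against 7.01, 6.65 and 6.74 in livers (4.88 ± 0.55), and the acetyltransferase Nat8, which finishes mercapturic acids, differed by 3.83 ± 0.55. Without normal liver 1, 7 were called higher and 21 lower; Sult1d1 and Ugt3a2 lost their calls. Among 24 anion and cation transporters, 13 were higher and 6 lower, with a median of 1.17. The carriers therefore divided between the organs within 1 family. Slco1a6 stood at 12.17, 12.16 and 12.14 in kidneys, against 6.54, 6.17 and 5.99 in livers. Slco1b2 stood at 5.45, 5.42 and 5.65 in kidneys, against 12.79, 12.82 and 12.87 in livers. Slco1a1, an androgen-regulated carrier of both organs, was not called (0.37 ± 0.91).

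**Figure D3:**
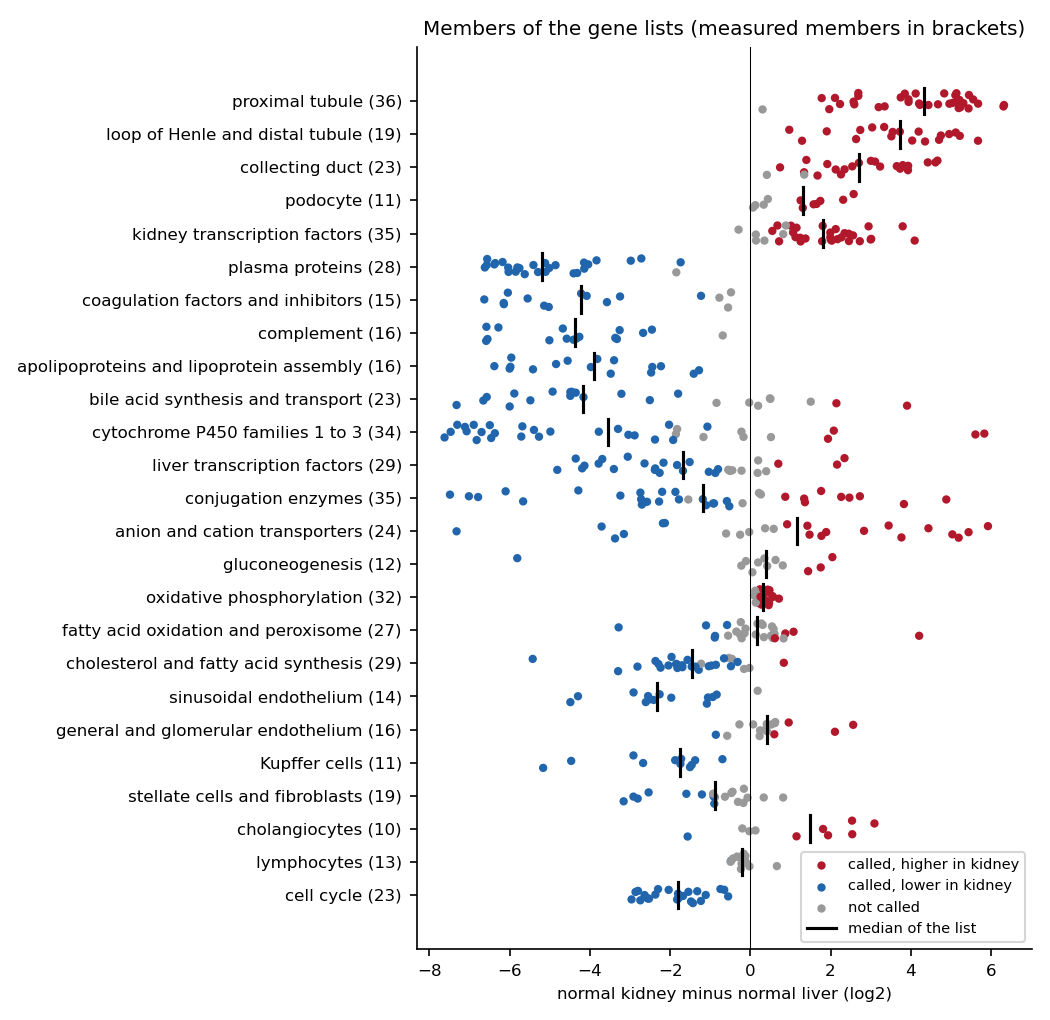
Differences of single genes, kidney minus liver (log2, horizontal axis), for 25 gene lists with the number of measured members in brackets; black bars are list medians. The medians of the 5 kidney lists lie right of 0, those of the secreted liver products lie left of it, and bile acid genes, P450s, conjugation enzymes and transporters have called members on both sides.

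Transcription factors of the hepatocyte were lower in kidney for 19 of 29 members and higher for 3, with a median of -1.68. Foxa3, a winged-helix factor of hepatocyte genes, stood at 6.31, 6.18 and 6.10 in kidneys, against 10.95, 11.03 and 11.06 in livers (-4.81 ± 0.13, adjusted p = 7.09e-12). Nr0b2 (-4.35 ± 0.24), a repressor in bile acid feedback, and Creb3l3 (-4.19 ± 0.11), which drives hepcidin and lipid genes, were next. Hnf4a, a nuclear receptor that both organs need, was not called (0.40 ± 0.30, adjusted p = 0.326). Its kidneys stood at 12.92, 12.90 and 12.83, against 12.45, 12.59 and 12.43 in livers, without overlap. Its relative Hnf4g was higher in kidney, at 8.71, 8.95 and 8.82, against 6.28, 6.52 and 6.64 in livers (2.35 ± 0.18). The nuclear receptors Nr1h4 (0.20 ± 0.38) and Ppara (-0.45 ± 0.42) were not called. 

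The promoters of genes that differed most were searched for a motif of the nuclear receptor HNF4, which is active in both organs, in windows from 250 bases before to 50 after each start site (RefSeq, GRCm38.p6), on both strands. The motif was CAAAGTCCA. It was found in 88 of 15563 promoters (0.565%), in 3 of 207 promoters of genes at least 8-fold higher in kidney (1.45%) and in 6 of 222 at least 8-fold lower (2.70%). At 2-fold, it was found in 13 of 1183 promoters on the kidney side (1.10%) and in 14 of 846 on the liver side (1.65%). These counts are small, they describe letters and not binding, and no test was run. Windows of 60 bases are shown for genes of both sides, with the HNF4 match in capitals. The HNF4 motif stands in promoters of genes that differ in opposite directions. Osbpl6 (chr2:76498961-76499020, + strand) and Treh (chr9:44673137-44673196, + strand) were higher in kidney, and Cyp3a11 (chr5:145879929-145879988, - strand) and Cyp2c70 (chr19:40187316-40187375, - strand) were lower. In Osbpl6 and Treh the match is the reverse complement of the motif. Matches began between 20 and 109 bases before the start site.
Osbpl6: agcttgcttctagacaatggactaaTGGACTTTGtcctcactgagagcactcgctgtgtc
Treh: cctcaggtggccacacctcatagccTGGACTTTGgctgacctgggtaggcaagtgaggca
Cyp3a11: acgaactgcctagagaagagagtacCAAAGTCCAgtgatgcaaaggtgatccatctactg
Cyp2c70: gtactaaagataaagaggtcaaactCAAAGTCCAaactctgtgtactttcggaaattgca

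Some pathways pass between the organs. In vitamin D metabolism, the liver enzyme Cyp2r1, which makes the circulating 25-hydroxy form, stood at 7.26, 6.87 and 6.91 in kidneys, against 9.83, 10.04 and 10.04 in livers (-2.96 ± 0.22, adjusted p = 2.22e-07). Cyp27b1, the kidney enzyme that activates it, stood at 8.04, 8.91 and 8.57 in kidneys, against 6.85, 6.64 and 6.81 in livers (1.74 ± 0.20, adjusted p = 1.6e-05). Neither gene's groups overlapped. Vdr, the vitamin D receptor, was higher in kidney by 4.92 ± 0.30, and Kl, the FGF23 co-receptor klotho, by 4.89 ± 0.35. Cyp27a1, a mitochondrial sterol hydroxylase of bile acid synthesis with some 25-hydroxylase activity, was lower (-1.80 ± 0.36). Of 10 measured vitamin D genes 7 were higher and 3 lower, beside 21.4% and 16.4% over all genes. The vitamin D counts were the same without normal liver 1.

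In the renin-angiotensin system, Agt, the precursor secreted by the liver, stood at 11.42, 10.90 and 11.38 in kidneys, against 12.96, 13.03 and 13.04 in livers (-1.78 ± 0.44, adjusted p = 0.00566). Ace, the converting enzyme, stood at 12.08, 11.91 and 12.12 in kidneys, against 8.28, 7.44 and 7.33 in livers (4.35 ± 0.53). The peptidase Mme, which cleaves angiotensin and other peptides, differed by 2.54 ± 0.45. The receptor Agtr1a was not called (-0.60 ± 0.26, adjusted p = 0.0898), and Agtr2 (0.01 ± 0.17) and Mas1 (0.19 ± 0.10) lay below 6.8 on every array. Of 10 measured members 4 were higher and 1 lower, beside 21.4% and 16.4% over all genes. The mineralocorticoid receptor Nr3c2 (0.53 ± 0.16) lost its call without normal liver 1 (0.47, adjusted p = 0.0641).

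Both enzymes of creatine synthesis were called, in opposite directions. Gatm, which makes guanidinoacetate in the kidney, stood at 13.37, 13.47 and 13.39 in kidneys, against 11.48, 10.61 and 10.61 in livers (2.51 ± 0.47, adjusted p = 0.000801). Gamt, which methylates it to creatine in the liver, stood at 10.10, 10.12 and 10.21 in kidneys, against 11.995, 12.10 and 12.01 in livers (-1.89 ± 0.18, adjusted p = 2.54e-06). The creatine transporter Slc6a8 (2.60 ± 0.21) and the creatine kinases Ckmt1 (2.70 ± 0.22) and Ckb (1.35 ± 0.19) were higher in kidney. These 5 calls also held without normal liver 1.

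**Figure D4:**
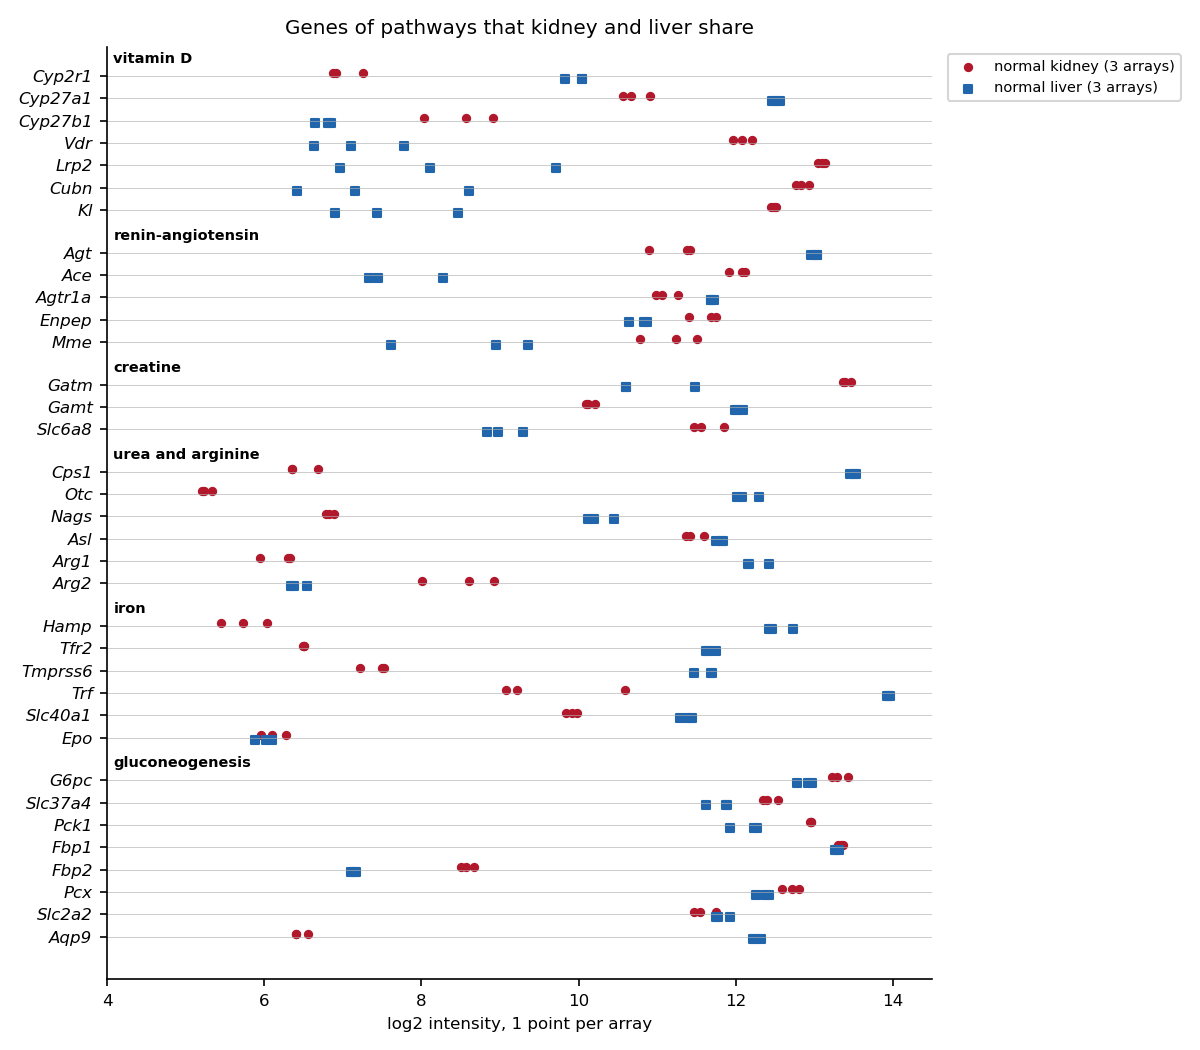
Log2 intensity of single genes on each normal kidney array (circles, just above each line) and each normal liver array (squares, just below it) for 6 pathways. Cyp2r1, Agt and Gamt stand higher in liver, their partners Cyp27b1, Ace and Gatm stand higher in kidney, and the arrays of the organs overlap for Fbp1 and Epo.

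Urea cycle genes differed by enzyme. Cps1, the entry enzyme that fixes ammonia, stood at 6.35, 6.36 and 6.69 in kidneys, against 13.50, 13.45 and 13.54 in livers (-7.03 ± 0.33, 131-fold lower in kidney). Otc (-6.88 ± 0.17), the next enzyme, and Arg1 (-6.05 ± 0.57), which releases urea, were also lower. Asl, the argininosuccinate lyase, stood at 11.37, 11.60 and 11.42 in kidneys, against 11.75, 11.83 and 11.83 in livers, and was not called (-0.34 ± 0.42, adjusted p = 0.569). The kidney is known to make arginine for the body with this enzyme. Arg2, the mitochondrial arginase, was higher in kidney at 8.92, 8.004 and 8.60, against 6.37, 6.55 and 6.34 in livers (2.09 ± 0.49), as was Odc1, the polyamine enzyme (2.01 ± 0.13). Of 12 measured members 3 were higher and 6 lower, beside 21.4% and 16.4% over all genes. Oat lost its call without normal liver 1 (-0.62, adjusted p = 0.0531). Of 13 genes of glutamine and ammonia handling 2 were higher and 8 lower, beside the same shares. Rhcg, an ammonia channel of the collecting duct, differed by 3.65 ± 0.28, and Slc38a4, a hepatocyte amino acid carrier, by -4.67 ± 0.18. Slc1a5, a glutamine carrier that was also high in normal liver 1 and normal kidney 2, stood at 9.37, 10.61 and 9.37 in kidneys, against 10.06, 7.34 and 7.47 in livers; it was called only without normal liver 1 (2.38, adjusted p = 0.000924, against 1.49 and 0.0765 with it).

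Of 17 genes of iron handling and erythropoietin 9 were lower in kidney and 3 higher, beside 16.4% and 21.4% over all genes. Epo itself was not called. Hamp, the iron hormone hepcidin, stood at 5.45, 5.73 and 6.03 in kidneys, against 12.46, 12.43 and 12.73 in livers (-6.80 ± 0.42, 112-fold lower in kidney). Of its regulators, Tfr2 (-5.17 ± 0.18), Hjv (-4.93 ± 0.52) and Tmprss6 (-4.21 ± 0.14) were lower in kidney. Epo, the kidney hormone of red cell formation, stood at 6.10, 5.96 and 6.27 in kidneys, against 5.88, 6.02 and 6.10 in livers (0.12 ± 0.15, adjusted p = 0.576). Bmp6, the signal that raises hepcidin, was higher in kidney, at 10.67, 10.60 and 10.62, against 8.86, 8.44 and 8.27 in livers (2.11 ± 0.30). The counts were the same without normal liver 1.

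Of 12 measured members of gluconeogenesis 3 were called higher and 1 lower, with a median of 0.39, near the 21.4% and 16.4% called over all genes. Fbp1, fructose bisphosphatase, stood at 13.37, 13.31 and 13.35 in kidneys, against 13.27, 13.32 and 13.27 in livers (0.05 ± 0.22, adjusted p = 0.877). G6pc, which frees glucose from its phosphate, stood at 13.29, 13.43 and 13.23 in kidneys, against 12.93, 12.98 and 12.78 in livers (0.42 ± 0.50, adjusted p = 0.55). Pck1, which commits oxaloacetate to the pathway, stood at 12.96, 12.96 and 12.94 in kidneys, against 12.28, 12.23 and 11.93 in livers (0.81 ± 0.63, adjusted p = 0.342). Kidneys lay above all livers for G6pc and Pck1. When only the 6 normal arrays were fitted, 7 members were called higher, Pck1 (adjusted p = 0.000511) and G6pc (0.00657) among them. The large difference was in a carrier: Aqp9, through which hepatocytes take up glycerol, stood at 6.41, 6.40 and 6.56 in kidneys, against 12.24, 12.32 and 12.22 in livers (-5.81 ± 0.14). Fbp2 (1.44 ± 0.12), the muscle form of the bisphosphatase, G6pc3 (2.05 ± 0.19), a ubiquitous form of the phosphatase, and the coactivator Ppargc1a (1.75 ± 0.43) were higher in kidney.

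Isozymes of sugar metabolism differed in both directions, 6 higher and 6 lower of 17, beside 21.4% and 16.4% over all genes. Ldhb, the heart-type lactate dehydrogenase, stood at 12.29, 12.48 and 12.32 in kidneys, against 9.52, 7.71 and 7.21 in livers (4.22 ± 0.43), while Ldha stood at 13.08 to 13.13 in kidneys and 13.10 to 13.15 in livers (-0.02 ± 0.07). Gckr, the regulator of liver glucokinase, was lower in kidney (-4.47 ± 0.25), as was the liver pyruvate kinase Pklr (-1.82 ± 0.43). The fructose carrier Slc2a5 was higher (3.49 ± 0.20). Ldhb, Aldoa, Pkm and Pfkp were each highest in normal liver 1 among the livers; the difference of Pkm was 1.10 ± 0.23 with it and 1.49 without it. Hk1 differed by -0.18 ± 0.06, its call was lost in most alternative settings (without normal liver 1 the adjusted p was 0.0758), and the mean of its probe sets was higher in kidney by 1.05. In ketone metabolism, Oxct1, which lets tissues other than liver burn ketone bodies, stood at 12.40, 12.30 and 12.44 in kidneys, against 9.20, 7.27 and 7.40 in livers (4.42 ± 0.43, adjusted p = 2.69e-06). Bdh2 was higher (3.01 ± 0.25) and the monocarboxylate carrier Slc16a1 lower (-1.95 ± 0.17). With 2 of 7 measured ketone genes higher and 1 lower, the counts are near the shares over all genes.

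Amino acid breakdown had liver-sided first steps and shared later ones. Of 14 genes of phenylalanine, tyrosine and tryptophan breakdown 4 were lower and 1 higher, beside 16.4% and 21.4% over all genes. Tdo2, which opens the tryptophan ring, stood at 5.33, 5.63 and 5.44 in kidneys, against 12.98, 12.997 and 12.92 in livers (-7.50 ± 0.50), and the tyrosine aminotransferase Tat differed by -6.47 ± 0.43. Hgd and Fah, the late enzymes of tyrosine breakdown, were not called (-0.11 ± 0.31 and -0.07 ± 0.26). Hgd stood at 13.04, 13.002 and 13.03 in kidneys, against 13.11, 13.10 and 13.19 in livers. Of 19 genes of glycine, serine and methionine, 7 were lower and 2 higher, beside the same shares over all genes. Mat1a, which makes the methyl donor S-adenosylmethionine in hepatocytes, differed by -6.88 ± 0.28, Agxt by -5.80 ± 0.12 and Bhmt by -5.35 ± 0.24. The serine synthesis enzymes Psat1 (1.76 ± 0.20) and Phgdh (0.65 ± 0.20) were higher in kidney. A fit of only the 6 normal arrays called 7 and 13 members of these lists lower.

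Respiratory chain genes were slightly higher in kidney. Of 32 measured members of oxidative phosphorylation 24 were called higher and none lower, with a median of 0.31 and a largest difference of 0.71 (Ndufb8, a subunit of complex I). Atp5b, the catalytic subunit of ATP synthase, stood at 13.62, 13.61 and 13.61 in kidneys, against 13.33, 13.32 and 13.37 in livers (0.28 ± 0.06, adjusted p = 0.00419). The count rests on the scale and on the arrays used: 10 members were called higher after centring each array, and 13 without normal liver 1 and normal kidney 2. Of 27 fatty acid oxidation and peroxisome genes 4 were higher and 5 lower, with a median of 0.18, near the shares over all genes (21.4% and 16.4%). Cyp4b1 (4.21 ± 0.46), a fatty acid hydroxylase, was the largest, and Acadm (0.87 ± 0.18), the medium-chain dehydrogenase, was higher, while Acaa2 (-0.89 ± 0.10) and Hadha (-0.58 ± 0.10) were lower. On the 6 normal arrays alone 11 were called higher and 8 lower.

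Cholesterol and fatty acid synthesis was lower in kidney for 23 of 29 members and higher for 1, with a median of -1.46. Fdps, which makes farnesyl diphosphate, stood at 9.60, 9.50 and 9.31 in kidneys, against 11.76, 11.79 and 11.96 in livers (-2.36 ± 0.16, adjusted p = 1.04e-07). Srebf1, the factor that drives fatty acid synthesis genes, differed by -2.04 ± 0.15. Hmgcs1 (-0.16 ± 0.16) and Mvd (-0.02 ± 0.15), enzymes of the mevalonate pathway, were not called. Some genes of this list were raised in normal kidney 2, the array high in adipocyte markers, and their source there was not tested. Thrsp, a lipogenic nuclear protein, stood at 7.02, 10.01 and 7.37 in kidneys, against 11.63, 11.28 and 11.38 in livers, and Fasn, fatty acid synthase, at 10.28, 11.95 and 10.41 in kidneys, against 12.76, 12.55 and 12.41 in livers. Me1, malic enzyme, was the member higher in kidney (0.84 ± 0.30, adjusted p = 0.0448), and lost its call without normal liver 1 (0.94, adjusted p = 0.0535).

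Markers of cells other than the parenchyma are read beside the 21.4% of all genes called higher and 16.4% called lower. Of 14 markers of liver sinusoidal endothelium 13 were lower in kidney, with a median of -2.33. Clec4g, a lectin of these cells, stood at 6.61, 6.37 and 6.55 in kidneys, against 10.87, 10.74 and 10.81 in livers (-4.30 ± 0.13). The scavenger receptor Stab2 differed by -2.60 ± 0.28. Fcgr2b, an Fc receptor, was not called (0.18 ± 0.22). Of 16 general and glomerular endothelial markers 4 were higher and 1 lower. Emcn, endomucin, stood at 11.65, 11.59 and 11.62 in kidneys, against 10.30, 9.05 and 9.17 in livers (2.11 ± 0.43), and Plat, tissue plasminogen activator, differed by 2.56 ± 0.30. With normal liver 1 left out 6 were higher and none lower, and on the 6 normal arrays alone 9 were higher and 2 lower.

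All 11 Kupffer cell markers were lower in kidney, with a median of -1.74; 6 were called when the dimmest genes were left out before the fit. Vsig4, the complement receptor of these macrophages, stood at 5.40, 5.47 and 5.40 in kidneys, against 10.65, 10.62 and 10.48 in livers (-5.16 ± 0.55). Clec4f differed by -2.91 ± 0.18 and Cd5l by -4.46 ± 0.53. Of 15 general myeloid genes 8 were lower, among them the complement C1q chains C1qa (-1.15), C1qb (-1.61) and C1qc (-1.73), while Csf1r (0.18 ± 0.24), the macrophage growth factor receptor, was not called. Csf1r stood at 10.29, 9.72 and 10.07 in kidneys, against 9.88, 9.92 and 9.76 in livers. Lymphocyte markers were called for 1 of 13, Cd4 (-0.48 ± 0.14). Stellate cell and fibroblast markers were lower for 8 of 19. Reln (-2.91 ± 0.17) and Lrat (-2.81 ± 0.30), which mark the vitamin A storing stellate cells, stood without overlap, and 16 of the 19 were highest in normal liver 1 among the livers. Acta2, smooth muscle actin, stood at 10.35, 10.34 and 10.32 in kidneys, against 11.80, 9.45 and 10.24 in livers. Of 10 markers of bile duct cells 6 were higher in kidney, among them Epcam (3.09 ± 0.33), Krt7 (2.54 ± 0.28) and Cftr (1.94 ± 0.24), genes that kidney tubules and ducts are known to express too. Sox9, a duct cell factor, was lower (-1.56 ± 0.25). Exocrine pancreas markers lay between 5.14 and 8.67 on all 6 arrays.

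Cell cycle genes were lower in kidney without exception. All 23 measured members were called, with a median of -1.80, against a background of 16.4% called lower. Mki67, the proliferation marker, stood at 6.96, 7.30 and 7.16 in kidneys, against 9.70, 9.79 and 10.52 in livers (-2.86 ± 0.23, adjusted p = 4.95e-07). Ccna2, cyclin A2, stood at 6.97, 7.76 and 7.54 in kidneys, against 10.09, 10.09 and 10.97 in livers (-2.96 ± 0.27), and Top2a, the replication topoisomerase, at 6.54, 6.48 and 6.63 in kidneys, against 8.80, 8.75 and 9.78 in livers (-2.56 ± 0.27). Normal liver 3 was the highest array for all 23, and the calls were also 23 of 23 without normal liver 1. The smallest differences were those of the replication genes Pcna (-0.55 ± 0.15) and Mcm2 (-0.65 ± 0.15). Of 11 measured hepatoblast and fetal liver genes 1 was higher in kidney, 2 were lower and 8 were not called. Over all genes the shares were 21.4% higher and 16.4% lower. Afp was not called (-0.87 ± 0.40). The lower members were Ahsg, also a plasma protein gene, and Igf2bp3, an RNA-binding protein of fetal tissue. Igf2bp3 stood at 6.38, 6.32 and 6.33 in kidneys, against 8.79, 8.96 and 9.44 in livers (-2.72 ± 0.26). As the age of the normal liver is not given, a difference of age between the groups cannot be told apart from that of organ.

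Genes with a known sex bias were followed because normal liver 3 stood apart in some of them. Of 7 female-biased liver genes 4 were lower in kidney, and of 10 male-biased genes 3 were higher and 2 lower. The male-biased counts are near the shares over all genes, 21.4% higher and 16.4% lower. Kap, an androgen-driven kidney protein, stood at 13.85, 13.83 and 13.87 in kidneys, against 10.67, 9.77 and 7.08 in livers (4.68 ± 0.73). Hsd3b5, a male-biased liver enzyme, stood at 5.34, 5.63 and 5.82 in kidneys, against 11.91, 12.09 and 10.76 in livers (-5.99 ± 0.30). Cyp2b13, a female-biased P450, stood at 5.21, 4.90 and 5.31 in kidneys, against 7.22, 7.40 and 8.64 in livers (-2.62 ± 0.44). Among the livers, normal liver 3 was the highest for Cyp2b13 and the lowest for Kap and Hsd3b5. The X-linked Xist and the Y-linked Eif2s3y each lay in a narrow range on all 6 arrays, so neither set normal liver 3 apart. What sets it apart in the sex-biased genes was not tested. Kap is also a proximal tubule gene, and its livers stood in the order 1, 2, 3 described for that list. Of 12 immediate early genes, which rise within minutes of handling or stress, 3 were higher and 2 lower, near the shares over all genes (21.4% and 16.4%). The largest difference among them was that of Egr1, lower in kidney at 7.28, 7.22 and 7.48, against 10.11, 10.11 and 9.32 in livers (-2.52 ± 0.26).

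Adrenal and fat markers followed the arrays that stood apart. Of 12 adrenal cortex markers 4 were called lower in kidney, and 2 without normal liver 1: Scarb1 (-2.76 ± 0.15), the lipoprotein receptor, and Mrap (-3.16 ± 0.30). Scarb1 stood at 8.92, 9.11 and 8.92 in kidneys, against 11.86, 11.70 and 11.67 in livers, so normal liver 1 was close to the other livers. Of 11 adrenal medulla markers 1 was higher in kidney, 2 were lower and 8 were not called, with a median of -0.65. Over all genes 21.4% were called higher and 16.4% lower. The higher marker was Slc18a1, a vesicular monoamine carrier, at 11.83, 12.21 and 12.18 in kidneys, against 8.13, 7.54 and 7.53 in livers (4.34 ± 0.32). Of 12 adipocyte markers 1 was called, Pparg (-1.22 ± 0.39), and none without normal liver 1. Of 10 brown adipocyte markers 3 were higher, Fabp3, Ppargc1a and Slc27a1, and 1 lower, Elovl3, all of which kidney or liver cells are also known to express. The brown adipocyte counts are near the shares over all genes (21.4% and 16.4%). Lone arrays more than 2 log2 units above both others of their group were counted over all genes: normal liver 1 for 55 genes, normal kidney 2 for 17, normal liver 2 for 8, normal liver 3 for 3 and normal kidney 1 for 1.

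The organ difference was then set beside that between kidney tumors and liver tumors, which shares no array with it. limma called 1407 genes (7.06%) higher and 1177 (5.9%) lower in kidney tumor than in liver tumor. Of the 1523 genes at least 2-fold higher in normal kidney, 754 (49.5%) were called higher in kidney tumor, 3 lower and 766 not called, and their median difference was 0.58 in tumors and 1.67 in normal tissue. Of the 1097 genes at least 2-fold lower in normal kidney, 648 (59.1%) were called lower in kidney tumor, 4 higher and 445 not called, with medians of -0.89 in tumors and -1.93 in normal tissue. Across all genes the 2 differences correlated at r = 0.788, as a description of genes that are not independent. The lists moved unequally. Of 36 proximal tubule genes 32 were higher in kidney tumor and 1 lower, and all 28 plasma protein genes were lower. Pax8 differed by 2.87 (adjusted p = 2.6e-05) and Cps1 by -6.12 (2.92e-08) in tumors. Of the 23 cell cycle genes none was called in tumors, with a median of 0.25, and Ccna2 differed there by 0.19 (adjusted p = 0.749). Of the 29 cholesterol and fatty acid synthesis genes 4 were higher and 8 lower in kidney tumor. How much normal tissue the tumor samples hold is not given in the labels, so organ transcripts of tumor cells and of admixed normal tissue cannot be told apart.

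**Figure D5:**
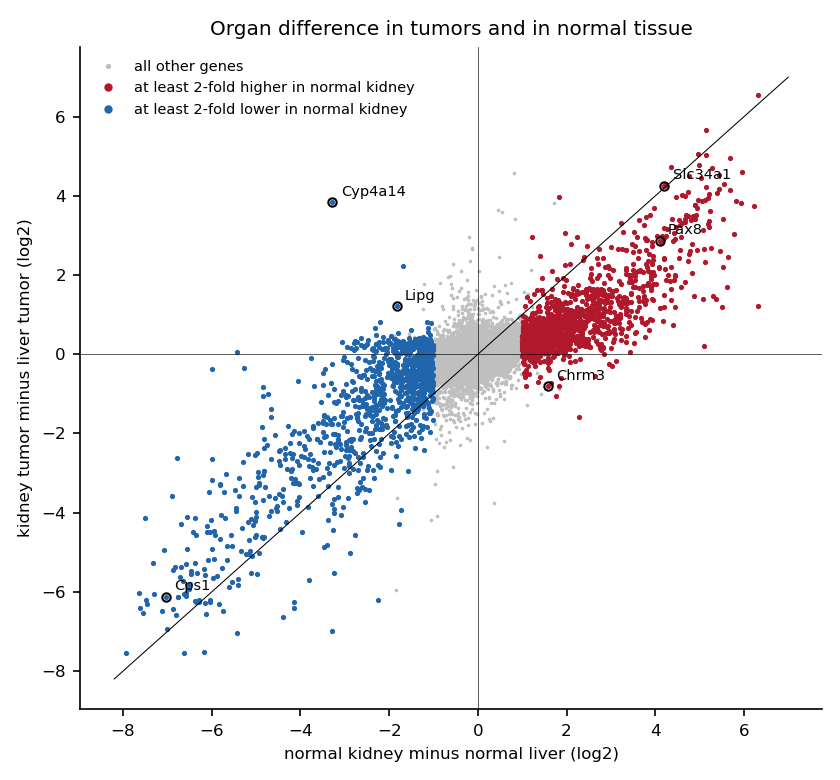
Difference between kidney tumor and liver tumor (vertical axis, log2) against that between normal kidney and normal liver (horizontal axis), 1 point per gene, with the line of equal difference. Of the genes at least 2-fold higher in normal kidney 754 are also called higher in kidney tumor and 3 lower, and Cyp4a14 is far on the opposite side, at 3.84 in tumors and -3.28 in normal tissue.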

How the data were processed

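Total RNA was hybridised to 1-channel Affymetrix arrays, labelled with the WT Terminal Labeling kit per the labels' protocols. Each array came with 1 deposited linear intensity for every probe set, from 20.7 to 20262 with array medians of 191 to 226. How the authors corrected, summarised and normalized them is not given in the sources used here. Deposited intensities were put on the log2 scale and otherwise left as they were. GEO's platform annotation gave a single gene symbol to 21789 of 28856 probe sets, several to 1621 and none to 5446. Per gene the probe set of highest mean over all 16 arrays was kept (999 genes had several), which left 19938 genes, and no filter on dim genes was applied.

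A limma fit (version 3.58.1, R 4.3.3) gave every group its own mean across the 16 arrays (10 residual and 2.66 prior degrees of freedom), 2-sided, with Benjamini-Hochberg adjustment over all genes. The script was tested on simulated data. Lists are described by counts and medians beside those of all genes, without a test. The comparison, its lists and the named genes were chosen with earlier results of these data known. Genes were named by rule: in each direction the 12 called genes of largest difference whose arrays did not overlap and that were also called without normal liver 1, leaving out predicted genes, receptor and immunoglobulin segments and small RNAs; the members of the lists shared by both organs and of the isozyme list; from each other list the 3 called members of largest difference and those against its majority; markers of proximal tubule, adrenal and fat; and the 10 genes in which normal liver 1 or normal kidney 2 departed most in a direction. Other list members named as examples, such as Umod, Hnf4a, Cyp2e1 and Pcna, were chosen after their values were seen. List entries without a probe set of their own were not analysed here. The labels name no batch or scan. Arrays of the same number did not deviate together (r of -0.088, -0.155 and 0.088). With 3 arrays per organ, these r cannot tell whether arrays of the same number came from the same animal. The labels name no pairing, and the main fit used none. Alternatives covered the samples fitted, scaling, dim genes, probe sets, moderation, a replicate block and leaving out arrays.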

Additional observations from a re-analysis of the deposited data

Results flagged for a closer look

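The organ difference of 6 genes had opposite signs in normal tissue and in tumors, both called. The genes were chosen for that, so the test of the difference between the 2 contrasts in the same limma fit was almost bound to pass and adds no support. The values are the normal difference minus the tumor difference, in log2. Cyp4a14, a fatty acid hydroxylase, had -7.12: it stood at 9.46 ± 0.64 in normal kidney and 12.74 ± 0.20 in normal liver, and at 11.53 ± 0.83 in kidney tumor and 7.69 ± 0.11 in liver tumor (SD, n = 3 each). Lipg, an endothelial lipase, had -3.04, and Ppard, a fatty acid sensing nuclear receptor, had -1.33. The potassium channel Kcnj2 had 2.64, the muscarinic receptor Chrm3 2.39 and the peptidase Corin 1.89. A small nucleolar RNA, Snord118, also had opposite signs, with -3.91. The 7 genes are set beside 2620 that differed at least 2-fold between the normal organs.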

How the results depend on the processing

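The total of 7538 calls lay between 5774 and 8871 over the alternatives. The setting without normal liver 1 and normal kidney 2 gave the fewest, and the fit of the 6 normal arrays alone gave the most. With the replicate number as a block over those 6 arrays, 7992 genes were called. Leaving out 1 array at a time gave 6277 to 6928 calls, and no such setting moved the total by more than 1.5 times. Of the named genes' results under alternatives, 4444 kept direction and side of the threshold, 125 lost the call, 83 gained it and 3 reversed. The reversals were Hk1 with its probe sets averaged (1.05), Bpgm without normal liver 2 (0.42, against -0.73 without normal liver 3) and Stmn2 without normal liver 1 on the normal arrays alone (0.65), a setting chosen after seeing the data. For Hk1, averaging brings in a probe set that stood higher in kidney; for the others the cause was not tested. Of 1536 list counts under alternatives, 139 moved by over 1.5 times. In tumors, leaving out 1 array gave 929 to 2416 genes higher in kidney tumor, the fewest without kidney tumor 2 and the most without liver tumor 2. No detection p was used here, so the lowest levels cannot be told from background.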
